A study of Oryza longistaminata with 12 samples.

Results

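Expression of 3 genes at the entry and at the fermentative exit of glycolysis was described in ramet roots of *O. longistaminata*, a wild rice that spreads by rhizomes. These were the pyruvate decarboxylase genes OL03T001290 and OL05T001771 and OL06T000607, annotated as an enzyme that cleaves sucrose into UDP-glucose and fructose. They are 3 of the 29335 gene models counted, and all of them were among the 25005 that passed the filter on low counts. They were picked because the study lists them as higher in +N split than in +N roots, so the values of that comparison chose the genes and are given here without a test. The identifiers and descriptions are those of the deposited counts and of the study's supplementary annotation, in which the letter G takes the place of T.

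Plants of the accession IRGC10404 were precultured hydroponically with 1 mM NH4Cl as their nitrogen source, and young ramets from adjacent rhizome nodes were treated as connected pairs for 24 h. In +N pairs the roots of both ramets received 2.5 mM NH4Cl, and in −N pairs both received 0 mM. Split pairs received 2.5 mM on one side, whose roots are called +N split, and 0 mM on the other, whose roots are called −N split. Each group had 3 root libraries, with 39071838 to 56252511 counted reads per library. The design therefore crosses the supply of the sampled root with that of its partner: +N split roots were supplied next to a deprived partner, and −N split roots were deprived next to a supplied partner. The labels do not state whether replicates were separate ramet pairs, although the study's methods speak of independently prepared pairs for its graphs, nor whether libraries of the same number on the 2 sides of the split came from 1 pair, so p-values measure the spread between these libraries. The title of −N replicate 1 gives −N and its treatment text gives the split treatment. The title was followed. Fold changes of the 3 genes and counts of list genes were also computed without that library.

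Pyruvate decarboxylase removes carbon dioxide from pyruvate to give acetaldehyde, which alcohol dehydrogenase reduces to ethanol while NAD+ is regenerated. In rice roots this route is best known from flooding, when oxygen is short and glycolysis has to supply energy without respiration. Cleavage of sucrose with UDP, the reaction of sucrose synthase, releases UDP-glucose for cell wall and starch synthesis and fructose for glycolysis. It is a main entry point for the sucrose that the phloem brings to roots.

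OL05T001771 had the widest range of the 3 genes. Its normalized expression, in counts per 1000000 reads (CPM) after TMM scaling, edgeR's correction for differences in composition between libraries, was 876, 1477 and 1027 CPM in +N replicates 1, 2 and 3. In +N split roots it was 4127, 3981 and 5174 CPM. In −N split roots it was 71.6, 302 and 319 CPM. These libraries were the lowest of all 12, and replicate 1 lay far below its 2 companions. In −N roots it was 2210.1, 1333 and 2177 CPM, so that 2 of the 3 libraries exceeded every +N library and the third fell within the +N range. The order of the group means was +N split (4427 ± 651 CPM, SD, n = 3), −N (1907 ± 497 CPM), +N (1127 ± 312 CPM) and −N split (231 ± 138 CPM). Neighbours in this order overlapped only for −N and +N.

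OL03T001290, the other pyruvate decarboxylase gene, spanned a much smaller range. It was expressed at 824, 948 and 774 CPM in +N and at 1214, 1100.5 and 1492 CPM in +N split roots. The −N split libraries had 348, 503 and 580.3 CPM and the −N libraries 783, 633 and 701 CPM. All −N split libraries were below all libraries of the other groups, and all +N split libraries above them. From high to low, the group means were 1269 ± 202 CPM for +N split (SD, n = 3), 849 ± 89.9 CPM for +N, 706 ± 75 CPM for −N and 477 ± 119 CPM for −N split, with overlap only between +N and −N.

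The sucrose-cleaving OL06T000607 followed the same order of groups as OL03T001290. It had 1678, 1926 and 1837 CPM with +N and 2198, 2548 and 3339 CPM with +N split treatment. The deprived roots had 939.5, 1046 and 1304 CPM (−N split) and 1378, 1157 and 1460 CPM (−N). All libraries of supplied roots, which are those that chose the genes, were thus above all libraries of deprived roots. Separation in this direction was common, at 18.3% of all genes for −N below +N and 22.0% for +N split above −N split. The share for all groups at once was not computed. For OL06T000607 it was the deprived groups that overlapped, −N (1332 ± 157 CPM, SD, n = 3) and −N split (1096 ± 187 CPM), whereas +N split (2695 ± 584 CPM), +N (1814 ± 125 CPM) and −N did not.

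**Figure D1:**
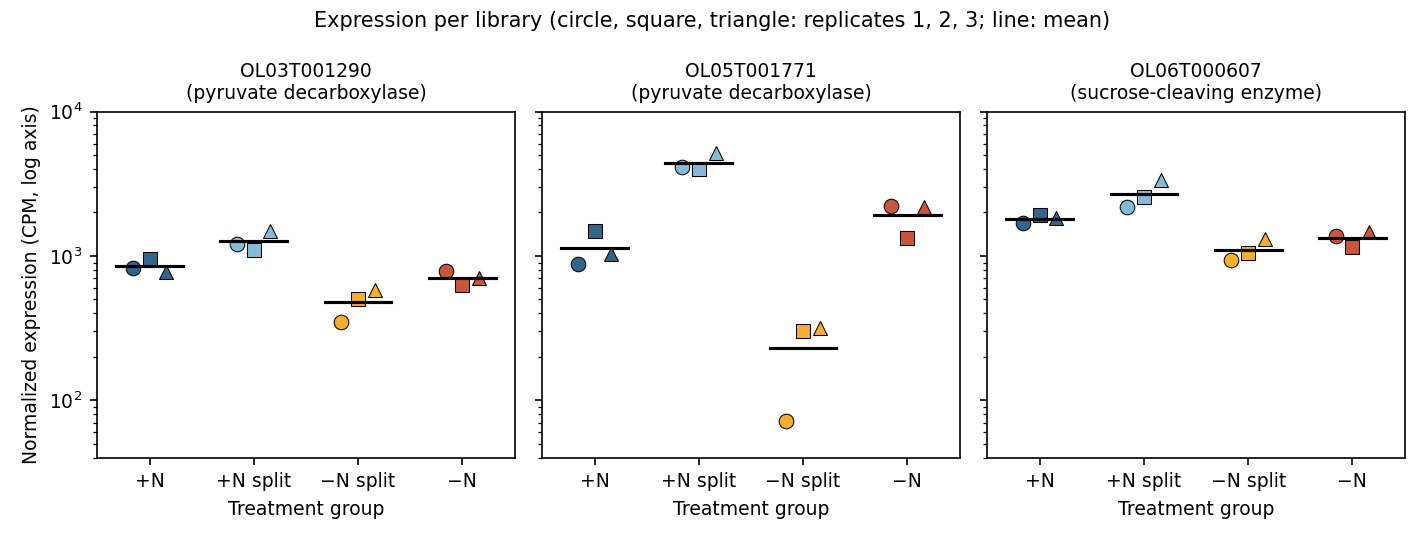
Normalized expression (CPM, log axis) of the pyruvate decarboxylase genes OL03T001290 and OL05T001771 and of the sucrose-cleaving OL06T000607 in each of the 12 libraries, by treatment group. Circles, squares and triangles are replicates 1, 2 and 3 and lines are group means. OL05T001771 runs from 71.6 CPM in −N split replicate 1 to 5174 CPM in +N split replicate 3, a wider range than that of the other genes.

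Together the 3 genes took 0.145% to 0.922% of the reads of a library, and each library held between 3239 and 217976 reads of each of them, so counting error is small beside the spread between replicates. CPM are not divided by gene length, and levels of different genes are therefore not compared. In bulk root RNA, fewer cells expressing a gene and less RNA of it per cell cannot be told apart. Reads of near-identical copies could be split or lost in counting, and the counter's settings are unknown here.

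Relative to +N roots, the +N split mean was 3.93 times as high for OL05T001771, with a log2 difference of 1.97, and the log2 difference was 0.58 for OL03T001290 and 0.57 for OL06T000607. For none of the 3 genes did a +N split library reach down to the +N range. This was also seen, in the same direction, in 8.71% of all genes tested, and 0.680% of all genes were called higher. As the genes were chosen on these libraries, nothing is read from their separation here. Between the 2 sides of the split pairs, OL05T001771 had a mean ratio of 19.2, OL03T001290 of 2.66 and OL06T000607 of 2.46, with +N split higher and without overlap. This separation occurred in 22.0% of all genes. These ratios use the same +N split libraries and were not tested either.

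The comparison of −N split with −N roots asks what a supplied partner changes in a deprived root. Neither group compared holds libraries that chose the genes, although those libraries entered the joint estimate of the spread. The mean of OL05T001771 in −N split roots was 8.26-fold below that in −N roots, or −3.05 ± 0.449 as a log2 fold change with its standard error (95% confidence interval −4.02 to −2.07). It was called lower by the quasi-likelihood test of edgeR, with Benjamini-Hochberg adjustment across all tested genes (adjusted p = 0.00252). Only 50 of the 25005 genes had a log2 fold change this low or lower, and 2.74% of all genes were called lower. The call held in every alternative tried, with log2 fold changes from −3.35 to −2.62 when a library was left out. It was −2.62 (adjusted p = 0.00069, same edgeR test) without −N split replicate 1 and −2.93 (adjusted p = 0.011, same edgeR test) without −N replicate 1, whose labels conflict.

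OL03T001290 was lower in all −N split than in all −N libraries, a separation that 11.6% of all genes showed in this direction. Its log2 fold change, −0.57 (95% confidence interval −0.94 to −0.19), was not called (adjusted p = 0.0974, edgeR), and was −0.38 without −N split replicate 1. By DESeq2's Wald test its adjusted p was 0.0261, and over all alternatives the adjusted p lay between 0.0261 and 0.28. For OL06T000607 the groups overlapped, and the log2 fold change was −0.28 (95% confidence interval −0.63 to 0.07, adjusted p = 0.395, edgeR). A decrease of the size seen in OL05T001771 lies outside the intervals of both genes.

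The comparisons of −N and −N split with +N roots ask how withdrawal of ammonium from the sampled root acts when the partner is deprived too or is supplied. They share the +N libraries with each other and with the choice of the genes, which favoured low values in +N. From +N to −N split roots all 3 genes fell. The log2 fold changes were −2.29 for OL05T001771 (adjusted p = 0.00299), −0.83 for OL03T001290 (adjusted p = 0.00498) and −0.73 for OL06T000607 (adjusted p = 0.00683), all by edgeR. None of the 3 overlapped between the groups, as in 19.4% of all genes in this direction. Here 12.2% of all genes were called lower, and these 3 calls held in every alternative tried.

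Between −N and +N roots edgeR called none of the 3 genes, where it called 19.2% of all genes. At an unadjusted p under 0.05 it was 1 gene, OL06T000607, which the DESeq2 Wald test also called. The shares of all genes called in these ways are not given, so nothing is read from this count. Without −N replicate 1 the log2 fold changes were −0.35, 0.64 and −0.47 for OL03T001290, OL05T001771 and OL06T000607, and none was called. OL03T001290 had a log2 fold change of −0.27 (95% confidence interval −0.64 to 0.11, adjusted p = 0.324, edgeR). OL06T000607 was lower in all −N libraries than in all +N libraries, as were 18.3% of all genes, with a log2 fold change of −0.45 (95% confidence interval −0.79 to −0.10, adjusted p = 0.0708, edgeR). It passed the threshold in 4 of 19 alternatives, among them the fit on the 6 libraries compared (adjusted p = 0.0387, edgeR). OL05T001771 had the opposite sign, 0.76 (95% confidence interval −0.15 to 1.67, adjusted p = 0.24, edgeR). Its adjusted p was 0.0326 (edgeR), at the same 0.76, once −N split replicate 1 was left out. That library is in neither group compared and entered only the joint estimate of the spread.

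**Figure D2:**
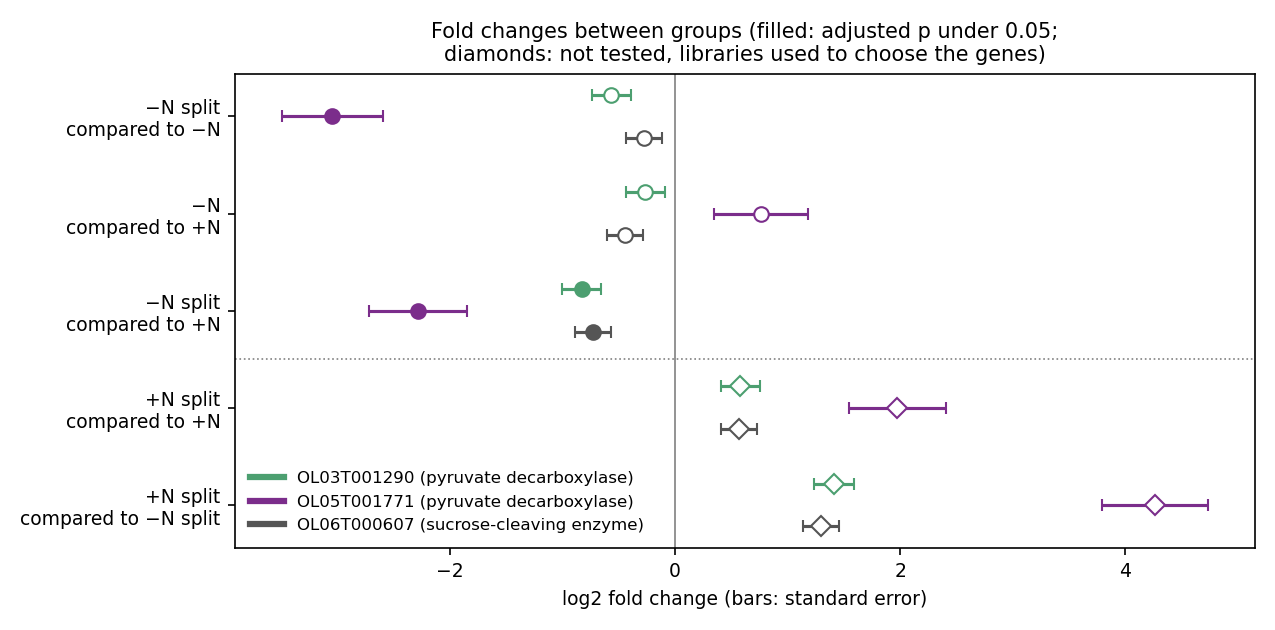
Log2 fold changes of OL03T001290, OL05T001771 and OL06T000607 in 5 comparisons between groups of 3 libraries, with bars for the standard error of the joint fit. Filled circles passed an adjusted p of 0.05, open circles did not, and diamonds are comparisons with the +N split libraries that chose the genes and were not tested. OL05T001771 lies at −3.05 for −N split against −N roots, with −0.57 and −0.28 for the others.

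The balance between the pyruvate decarboxylase genes was compared within libraries. The number of OL05T001771 reads per OL03T001290 read within a library does not depend on scaling, and gene length cancels when the ratio is compared between libraries. It was 1.06, 1.56 and 1.33 in +N, 3.40, 3.62 and 3.47 in +N split, 0.206, 0.601 and 0.549 in −N split, and 2.82, 2.11 and 3.10 in −N roots. No library of one group fell within the range of another, although the +N split and +N libraries are those that chose the genes. Between the deprived groups, which did not choose the genes, every −N library had a higher ratio than every −N split library, with or without −N replicate 1.

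The mean log2 ratio in −N split was 2.69 below that in −N roots, and in −N roots it was 1.02 above that in +N roots. Each of these differences, and the difference of −1.67 between −N split and +N roots, had p = 0.1 in a two-sided exact permutation test over 3 against 3 libraries, the smallest p this design allows (0.15 after Benjamini-Hochberg adjustment over the 9 ratio tests computed). The +N libraries took part in the choice of the genes, and how often other gene pairs separate this way was not computed. The ratio is not separate from the change of OL05T001771, at −3.05 between −N split and −N roots against −0.57 for OL03T001290. OL03T001290 reads per OL06T000607 read, by contrast, stayed within 0.370 and 0.568 over all 12 libraries. For this ratio the groups overlapped in each of the 3 comparisons tested, with exact permutation p values from 0.2 to 0.5.

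**Figure D3:**
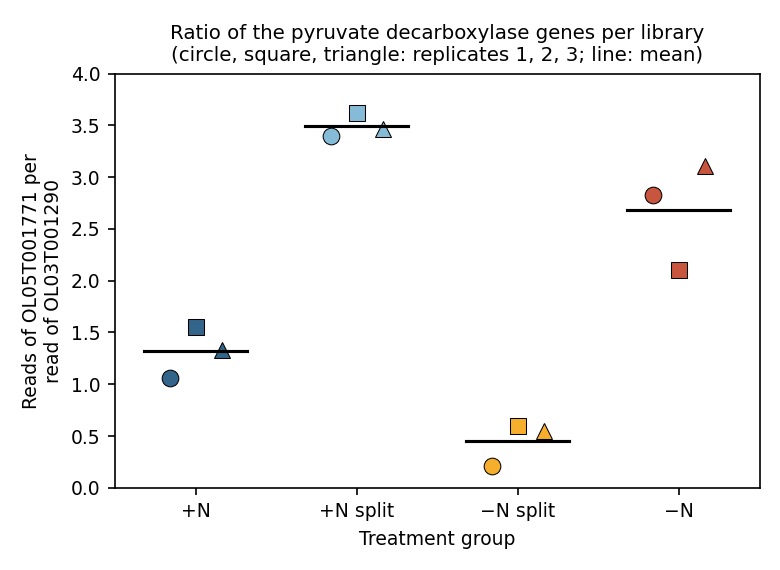
Reads of the pyruvate decarboxylase gene OL05T001771 per read of OL03T001290 in each of the 12 libraries, by treatment group. Circles, squares and triangles are replicates 1, 2 and 3 and lines are group means. The 4 groups do not overlap, with means of 1.32, 3.49, 0.452 and 2.68.

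Replicates agreed less well for OL05T001771 in −N split roots than for any gene of at least 100 CPM. Its standard deviation of log2 CPM among the 3 libraries was 1.22, and none of the 2099 genes with a mean of at least 100 CPM had a larger one in that group, where the median was 0.10. For OL03T001290 it was 0.38 in the same group, and 63 genes had a larger one. In all 3 genes −N split replicate 1 was the lowest library. Within the −N split group, that library also had the highest summed expression of 13 markers of leaf tissue. These genes are annotated as chlorophyll a-b binding proteins or the Rubisco small chain. Their sum was 1637 CPM against 558 and 498 CPM in its companions.

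The summed leaf markers ranged from 1904 to 2477 CPM in +N, from 1173 to 2956 CPM in +N split and from 1181 to 1789 CPM in −N roots, and none of the 13 genes was at 0 in all libraries. Between −N split and −N roots 1 of the 13 was called lower, and 5 were without −N split replicate 1. Of the root markers, the root isozyme of ferredoxin-NADP reductase (OL03T003355) had 53.6 to 78.8 CPM as group means and the root cap protein OL01T004499 had 1.73 (+N), 1.31 (+N split), 0.442 (−N split) and 2.03 CPM (−N). OL01T004499 was called lower in the comparison in which OL05T001771 was, −N split with −N roots (log2 fold change −2.21, adjusted p = 0.0332, edgeR), whereas OL03T003355 was not called (0.29, adjusted p = 0.0922, edgeR). Both were called lower from +N to −N split roots, and OL03T003355 also from +N to −N roots. Without −N replicate 1, 0 of the 2 were called between −N split and −N roots and 1 between −N split and +N roots, and without −N split replicate 1 it was 0 in both. Without −N split replicate 1, OL05T001771 was still called lower between −N split and −N roots, as were 5 of the 13 leaf markers. The part of leaf tissue or of root cap cells in the values of the 3 genes was not tested.

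Genes of neighbouring steps were grouped by their descriptions in the study's supplementary tables. A gene has such a description only because the study called it in some comparison of these libraries, so the counts below describe these genes and are not independent evidence. Between −N split and −N roots, 4.00% of all genes were called, 2.74% lower and 1.27% higher, and the median log2 fold change of all genes was 0.02. Between −N and +N roots 10.3% were called lower and 8.84% higher, and between −N split and +N roots 12.2% lower. The DESeq2 Wald test called 1861 of all genes between −N split and −N roots. No share of all genes at an unadjusted p under 0.05 is given, so list counts at that threshold have nothing to be compared with.

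Alcohol dehydrogenases, which take up the acetaldehyde made by pyruvate decarboxylase, were mostly lower in this comparison. Of 4 genes, 3 fell and 1 was not called, with a median log2 fold change of −1.45. OL11T000555, described as alcohol dehydrogenase 1, had 493, 300.3 and 425 CPM in −N and 61.9, 62.1 and 98 CPM in −N split roots (log2 fold change −2.46, adjusted p = 0.000174, edgeR). OL11T000556 and unmappedContigsT000545 had log2 fold changes of −1.51 and −1.38 (adjusted p = 0.00225 and 0.00161, edgeR). The same 3 genes fell in −N split compared to +N roots, where OL03T000621, at a mean of 29.2 CPM in −N split roots, was again not called. In −N compared to +N roots 2 of the 4 fell, OL11T000555 and OL03T000621. Aldehyde dehydrogenases, which oxidize acetaldehyde and other aldehydes, differed in direction between −N split and −N roots. Of 5, 1 rose (OL01T002075, log2 fold change 0.69), 1 fell (OL02T002964, −1.09) and 3 were not called. Neither call was kept without −N replicate 1, and the DESeq2 Wald test called 3 higher and 1 lower.

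Among genes of the pyruvate node, 3 of 14 fell from −N to −N split roots, none rose, and the median log2 fold change was −0.24. The largest change was in OL03T002044, described as a PEP-utilising enzyme and named by the study as a pyruvate orthophosphate dikinase gene (OlPPDKA). That enzyme interconverts pyruvate and phosphoenolpyruvate. It had 1521, 1325 and 2293 CPM in −N and 111, 293 and 273 CPM in −N split roots (log2 fold change −2.92, adjusted p = 0.000453, edgeR). As with OL05T001771, its −N libraries overlapped the +N libraries and its lowest library was −N split replicate 1. The malic enzyme genes OL05T000564 and OL01T000594, which make pyruvate from malate, had log2 fold changes of −1.74 and −0.59 (adjusted p = 0.0126 and 0.0415, edgeR). OL05T000564 had 156, 48.7 and 72.7 CPM in −N and 20.1, 35.0 and 28.2 CPM in −N split roots. Its highest −N value was in replicate 1, whose labels conflict. None of the 3 pyruvate kinases, the 5 pyruvate dehydrogenase components or the 2 alanine aminotransferases was called by edgeR. At an unadjusted p under 0.05 it was 7 of the 14 genes, a count without a share of all genes beside it. The DESeq2 Wald test called 4 of the 14, all lower, and 1861 of all genes in either direction. Without −N replicate 1, or without −N split replicate 1, 2 of the 14 genes fell.

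The genes related to low oxygen also included some that fell next to a supplied partner. Between −N split and −N roots 3 of 6 were not called, 1 of them with a log2 fold change above 0, and the median of the 6 was −1.33. The other 3 fell from −N to −N split roots. These were the plant cysteine oxidase OL09T001188, an oxygen-dependent enzyme of low-oxygen signalling (log2 fold change −2.30, adjusted p = 2.76e-05, edgeR), the hypoxia induced protein OL12T000084 (−1.68, adjusted p = 0.00169, edgeR) and OL03T000859, annotated as a possible oxygen sensor (−1.46, adjusted p = 0.00952, edgeR). Group means in −N split and −N roots were 2.27 and 11.2 CPM for OL09T001188 and 2.39 and 6.55 CPM for OL03T000859. For OL12T000084 they were 89.6 and 287 CPM. The count of 3 was the same without −N replicate 1 and without −N split replicate 1. Oxygen in the nutrient solutions was not among the data analysed here. All 6 fell from +N to −N split roots, and in −N compared to +N roots 4 were lower and 1, OL09T001188, was higher. This higher call was not kept without −N replicate 1.

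Of the 5 other sucrose-cleaving enzymes, 1 fell from −N to −N split roots, where 2.74% of all genes were called lower. This was OL03T001901, with the same description as OL06T000607, at 2095, 1543 and 1696 CPM in −N and 1001, 1221 and 1311 CPM in −N split roots (log2 fold change −0.59, adjusted p = 0.0475, edgeR). The call was not kept without −N replicate 1 or without −N split replicate 1. OL03T001571, the third gene with that description, had 75.8 CPM as its +N mean and lower means in the other groups, at 43.2 (+N split), 27.3 (−N) and 16.9 CPM (−N split). Its +N libraries, at 43.4, 125 and 58.9 CPM, overlapped those of +N split, and that difference was not called (adjusted p = 0.313, edgeR). Relative to +N it fell in both deprived groups, −N and −N split (log2 fold change −1.47 and −2.17, adjusted p = 0.00742 and 0.000758, edgeR). Invertases, which cleave sucrose with water, differed in direction in −N compared to +N roots. The acid invertase OL02T000043 rose from 178 to 285 CPM, whereas the cell wall invertase OL04T001013 and the neutral invertase OL03T001432 fell.

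Of 5 genes for sucrose synthesis and transport and 7 for hexose phosphates and UDP-glucose, edgeR called none between −N split and −N roots, with median log2 fold changes of 0.05 and −0.17. At an unadjusted p under 0.05 it was 1 gene of each list, and the DESeq2 Wald test called none. The smallest adjusted p among them was 0.132, for the UDP-glucose pyrophosphorylase OL04T002357. In −N compared to +N roots all 5 of the former were lower, and of the latter 3 were lower and 1 higher (4 of 5 and 2 of 7 lower without −N replicate 1). The higher gene was OL04T002357, at 104 CPM in +N and 251 CPM in −N roots, whereas OL09T001667 of the same description had 778 and 687 CPM and was not called.

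**Figure D4:**
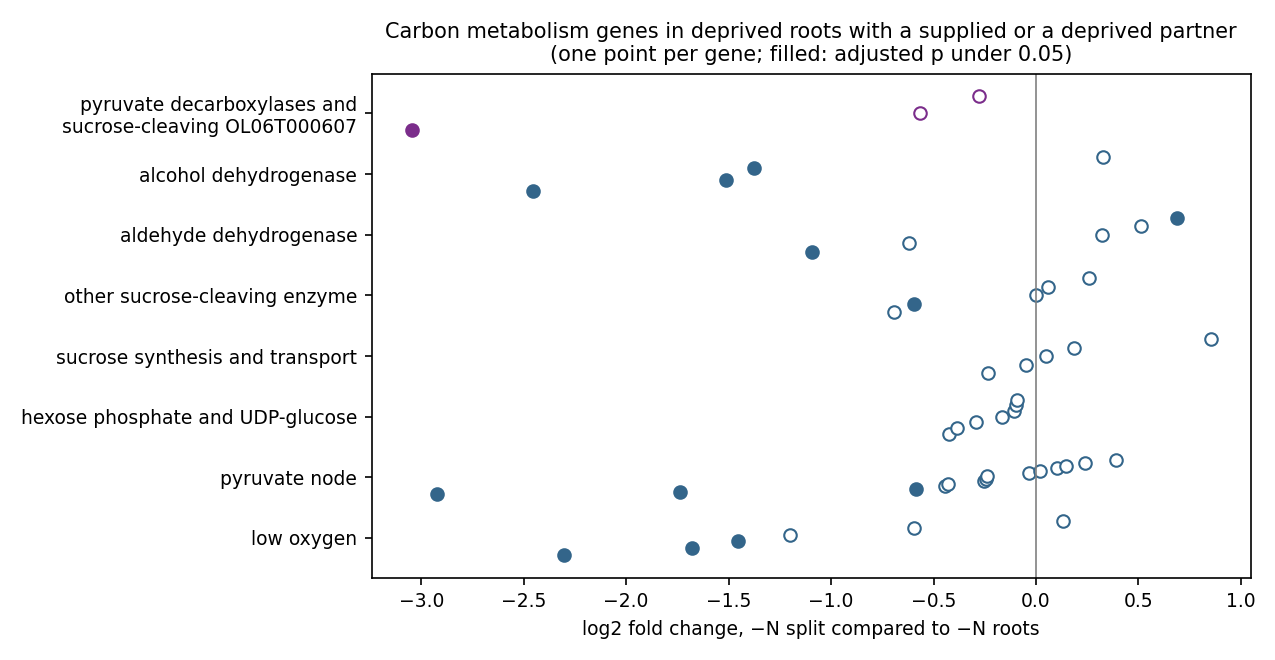
Log2 fold change between −N split and −N roots (negative when lower in −N split) for the pyruvate decarboxylases and OL06T000607 (top row) and for genes of neighbouring steps grouped by description, 1 point per gene, filled where the adjusted p was under 0.05. The lowest points are OL05T001771 at −3.05, OL03T002044 of the pyruvate node at −2.92 and OL11T000555 among the alcohol dehydrogenases at −2.46, while no gene of sucrose synthesis and transport or of hexose phosphates and UDP-glucose is filled.

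The genes with the most similar profiles were found by the Pearson correlation of log2 CPM over the 12 libraries, a description in which all genes share libraries and treatment groups. For OL05T001771 these were OL09T000821 (purple acid phosphatase, r = 0.990), OL07T002491 (universal stress protein, 0.989), OL10T000061 (acid phosphatase, 0.989), OL03T002044 (pyruvate orthophosphate dikinase, 0.982) and OL12T000558 (phosphoribosylglycinamide synthetase, 0.976). All 5 had their highest mean in +N split and their lowest in −N split roots.

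For OL03T001290 the closest gene was OL08T000976, described as a phosphofructokinase (r = 0.982), with group means of 1211 (+N split), 635 (+N), 512 (−N) and 269.9 CPM (−N split). Next came OL12T001115, OL03T000736, OL06T001461 and OL03T000351 (r from 0.970 to 0.980), described where a description exists as a disease resistance protein, a protein kinase and a WAT1-related protein. For OL06T000607 it was OL04T002823, a pyruvate kinase (r = 0.988), the enzyme that makes pyruvate at the end of glycolysis, with 511, 379, 300 and 254 CPM in the same order of groups. OL05T002213 (serine acetyltransferase), OL05T000841, OL09T001268 and OL01T002660 followed with r from 0.985 to 0.987. Among the 3 genes themselves, r was 0.950 between OL03T001290 and OL06T000607, 0.919 between the pyruvate decarboxylases and 0.806 between OL05T001771 and OL06T000607.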

How the data were processed

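Root mRNA libraries were sequenced by the authors, aligned with HISAT2 to a genome of this species, and counted with featureCounts. Their versions and the strand setting were not stated in the sources used here. The authors deposited these counts without normalization, and log2 CPM values of each library. The deposited log2 values equal those computed from the counts with edgeR (prior count 2, without TMM), and tests used the counts.

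Tests used edgeR 4.0.16 under R 4.3.3 (filterByExpr, minimum count 10 and minimum total count 15, TMM factors 0.922 to 1.07). A mean per group was fitted to all 12 libraries (8 residual degrees of freedom), and groups were compared with glmQLFTest and Benjamini-Hochberg adjustment over 25005 genes at an adjusted p under 0.05. Standard errors are the log2 fold change divided by the root of the F statistic. The study's methods name edgeR and the filter but no test. With 3 libraries against 3, an exact permutation test cannot give a p below 0.1. Replicates of a group differed by more than sampling noise (chi-square per gene 20.7 to 49.9), so none was counted as a copy. The pipeline was tested on simulated data.

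Genes named are the 3 genes, those of the lists, and the 5 genes with the most similar profile to each. The genes and lists were chosen with earlier results of these data known. Alternatives were DESeq2 1.42.0 size factors and Wald test, the 6 libraries compared only, no filter, a filter of 1 CPM in 3 libraries, a replicate block, thinning to the smallest library and each library left out. Supplementary annotation was read in part, and no sequence or genome was used.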

Additional observations from a re-analysis of the deposited data

Results flagged for a closer look

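The change of OL05T001771 against +N roots differed between the deprived groups. Its mean was 1.69-fold that of +N in −N roots and 4.88-fold lower than that of +N in −N split roots, and the difference between these changes, tested as −N split compared to −N roots, was −3.05 on the log2 scale (adjusted p = 0.00252, edgeR's quasi-likelihood test). The change between −N and +N roots was not called (adjusted p = 0.24, edgeR's quasi-likelihood test). Its groups overlapped, and the choice of the genes favoured low values in +N. All 3 −N split libraries lay below all 3 −N libraries, a separation shown in this direction by 11.6% of all genes.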

How the results depend on the processing

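The 15 log2 fold changes of the 3 genes in 5 comparisons kept their sign under all 19 alternatives. Of the 9 changes tested, the 4 called kept their call in all 76 values under alternatives, and the 5 not called gained one in 6 of 95 values. The other 6 changes were not tested. OL06T000607 in −N compared to +N roots was called lower with the replicate number as a block (−0.45, adjusted p = 0.027, edgeR), on the 6 libraries compared only (−0.44) and in the DESeq2 Wald test (−0.44), and ranged from −0.52 to −0.35 when libraries were left out (called without +N split replicate 3, adjusted p = 0.0373, edgeR). OL03T001290 was called lower between −N split and −N roots in the DESeq2 Wald test (−0.57). OL05T001771 in −N compared to +N roots ranged from 0.61 to 1.01 and was called only without −N split replicate 1. The replicate block changed no other call of these genes. Deviations of same-numbered libraries from their group means were at most weakly correlated (from −0.159 to 0.233), so the numbers were not taken as pairs. Only between +N split and +N did each library correlate best with its own number. The block gave 1032 in place of 1001 called genes between −N split and −N roots, and 163 in place of 196 between +N split and +N roots.

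Between −N split and −N roots 1001 genes were called, but 1861 in the DESeq2 Wald test and 467 to 1016 with a library left out (467 when −N replicate 1 was dropped, 565 for −N replicate 3, 521 for −N split replicate 2 and 624 for −N split replicate 3). Between +N split and +N roots it was 196, but 756 in the Wald test and 6 to 199 with a library left out (96, 128 and 9 when +N replicates 1, 2 and 3 were dropped in turn, 130 for +N split replicate 1, 32 for +N split replicate 2 and 6 for +N split replicate 3). Thinning to the smallest library kept the 4 calls. What greater depth would show for the changes not called was not tested. DESeq2 size factors moved the median of all genes by at most 0.0208 on the log2 scale. Leaving out −N replicate 1 or −N split replicate 1 for the lists was chosen after the data were seen. The leaf markers called lower between −N split and +N roots went from 2 to 13 of 13, and the aldehyde dehydrogenases from 2 to 1 of 5, without −N split replicate 1. The causes were not tested.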

Other observations

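Groups in the order of means of OL05T001771 (+N split, −N, +N, −N split) without any overlap were found in 12 of the 25005 genes tested (0.048%), and the order of OL03T001290 and OL06T000607 (+N split, +N, −N, −N split) without any overlap in 141 genes (0.564%). None of the 3 genes was among them, since each had a pair of neighbouring groups that overlapped.

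The pyruvate decarboxylase gene OL05T001771 and the pyruvate orthophosphate dikinase gene OL03T002044 had log2 fold changes of −3.05 and −2.92 for −N split against −N, −2.29 and −2.76 for −N split against +N, and 0.76 and 0.17 for −N against +N, where neither was called. OL03T002044 is among the genes with the profile closest to OL05T001771 over the same 12 libraries (r = 0.982). Similar fold changes follow from that correlation and are not a separate result.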
